A study of Mus musculus with 6 samples.

Results

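The genes described here carry out glucose uptake, glycolysis, gluconeogenesis and the entry into the pentose phosphate pathway. They were chosen by name as 40 gene symbols, which matched 41 of the 55421 genes in the deposited table because Aldoa had an entry under each of 2 identifiers. The comparison was between mouse leukemia cells with and without Ddit4, a gene that stress switches on and whose protein restrains mTOR. To make these cells, c-Kit+ blood stem and progenitor cells from the bone marrow were infected with a retrovirus carrying AML1-ETO9a (AE9a), which is the fusion protein AML1-ETO in a truncated, strongly leukemic form. The progenitor cells came from wild-type mice or from mice lacking Ddit4, and the groups are called AE9a-Ddit4+/+ and AE9a-Ddit4-/- (3 libraries each). All mice were of the C57BL/6 strain, and per the study's methods they were 6 to 8 weeks old when purchased. Both groups carried the AE9a virus with a GFP marker, equal numbers of GFP+ leukemia cells were given to irradiated recipients, and the labels name bone marrow as the tissue. Each group stands for cells of 3 recipients. Which primary leukemia each library came from was not given in the sources used here. The paper reports fewer primary knockout leukemias by the end of its follow-up than there are knockout libraries here. If the knockout libraries trace back to that cohort, some of them share a primary leukemia and are not independent. The p values thus measure only the spread between these libraries, which may be technical. Which part of Ddit4 the knockout allele lacks was not given in the sources used here.

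Glucose enters the cell through SLC2A transporters and is held there by hexokinases, which add a phosphate. Phosphofructokinase sets the pace of the pathway, the lower enzymes turn the sugar into pyruvate, and lactate dehydrogenase with the monocarboxylate transporters disposes of pyruvate as lactate. The pyruvate dehydrogenase kinases hold pyruvate back from the mitochondria, fructose bisphosphatase runs the phosphofructokinase step in reverse, and glucose 6-phosphate dehydrogenase diverts sugar into the pentose phosphate pathway. Many of these genes respond to hypoxia-inducible factors and to MYC, and blood cells use several isozymes that differ by lineage.

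The 6 libraries held 62141558 to 72717681 counts. Levels are given as CPM, the counts scaled to a library total of 1e+06 with TMM factors. Ddit4 itself was at 227, 161 and 341 CPM in AE9a-Ddit4+/+ and at 84.9, 77.6 and 85.8 CPM in AE9a-Ddit4-/- (edgeR adjusted p 0.00635, log2 fold change -1.56, SE 0.28). The transcript was thus lower but still counted in every library of the knockout. At the protein level, the paper reports by western blot that DDIT4 was absent from AE9a-Ddit4-/- leukemia cells. Markers of other cells also moved with genotype. The summed level of 10 erythroid markers was 5635 to 12590 CPM in AE9a-Ddit4+/+ and 120 to 640 CPM in AE9a-Ddit4-/-. That of 8 neutrophil markers was 6749 to 10140 and 927 to 4168 CPM. Of the erythroid list, Slc4a1 did not pass (log2 fold change -0.16, edgeR adjusted p 0.89). Of the neutrophil list, Ngp, Camp, Mmp9 and Cxcr2 did not pass (edgeR adjusted p 0.053, 0.108, 0.262 and 0.628). The log2 fold change of Cxcr2 was positive (0.27). The summed level was higher in AE9a-Ddit4-/- for 8 megakaryocyte and platelet markers (101 to 168 and 2084 to 2753 CPM). It was also higher there for 8 markers of stroma and endothelium (6.71 to 11.9 and 319 to 329 CPM). Itga2b made up most of the megakaryocyte sum (116 and 2020 CPM on average), Vwf moved the other way (7.16 and 1.71 CPM, adjusted p 0.0327) and Gp1ba did not pass (adjusted p 0.123). Pdgfrb (1.18 and 154 CPM) and Pecam1 (3.64 and 137 CPM) made up most of the stroma and endothelium sum in the knockout. Of that list, Col1a1, Col1a2 and Lepr did not pass (edgeR adjusted p 0.199, 0.0748 and 0.846). Summed markers of other lineages were also higher in the knockout libraries, at 62 to 111 and 114 to 316 CPM for 8 of monocytes and macrophages, 10.2 to 47.6 and 75.1 to 98.3 CPM for 8 of T and NK cells and 1.05 to 4.86 and 64.5 to 127 CPM for 7 of B cells. Of the monocyte and macrophage list, only Mrc1 and C1qa passed. Nkg7 made up most of the T and NK sum (22.1 and 52.6 CPM on average) and did not pass (edgeR adjusted p 0.178), while Cd3e, Cd3d, Cd3g, Cd4, Cd8a and Klrb1c were higher. The 4 general hematopoietic markers summed to 1839 to 2069 CPM and 1671 to 2054 CPM. The 5 myeloid progenitor markers summed to 350 to 1655 CPM in AE9a-Ddit4+/+ and 1114 to 1376 CPM in AE9a-Ddit4-/-, with overlap. Among them, Kit was at 14.6 to 31.6 CPM in AE9a-Ddit4+/+ and 304 to 508 CPM in AE9a-Ddit4-/-. Elane was lower in the knockout (246 and 69.6 CPM on average, edgeR adjusted p 0.0413), and Mpo, Prtn3 and Ctsg did not pass. The part of this mixture in each result below was not tested, and in such bulk libraries fewer cells of a type and less RNA per cell cannot be told apart. Genotype and the sex of the cells cannot be told apart either, since Xist was at 565 to 1032 CPM in AE9a-Ddit4+/+ and 20.3 to 129 CPM in AE9a-Ddit4-/-, and Ddx3y on the Y chromosome was at 0.0773 CPM or less and at 88.2 to 125 CPM.

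All 40 genes had enough counts to be tested. Of these, 10 were higher and 6 were lower in AE9a-Ddit4-/- cells at an edgeR adjusted p below 0.05, and 24 did not pass. Fbp2 and Eno2, both higher, had at most 4 counts in any AE9a-Ddit4+/+ library and entered the test only through the AE9a-Ddit4-/- libraries. Pklr, which was lower, had at most 4 counts in any AE9a-Ddit4-/- library and entered through AE9a-Ddit4+/+. The counts and shares that follow include these genes. The 16 genes past the threshold are 40% of the members, against 30.1% of all 18375 genes tested (19.4% higher and 10.7% lower). The groups of libraries did not overlap for 18 members (45%), against 50.1% of all genes, with 12 higher (27.9% of all genes) and 6 lower (22.2%). The median log2 fold change of the members was -0.03, against 0.04 over all genes, and the median absolute change was 0.71 against 0.75. The set as a whole was thus near the background. Its summed level was 6626 ± 774 CPM (SD, n = 3) in AE9a-Ddit4+/+ and 6208 ± 676 CPM in AE9a-Ddit4-/-.

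**Figure D1:**
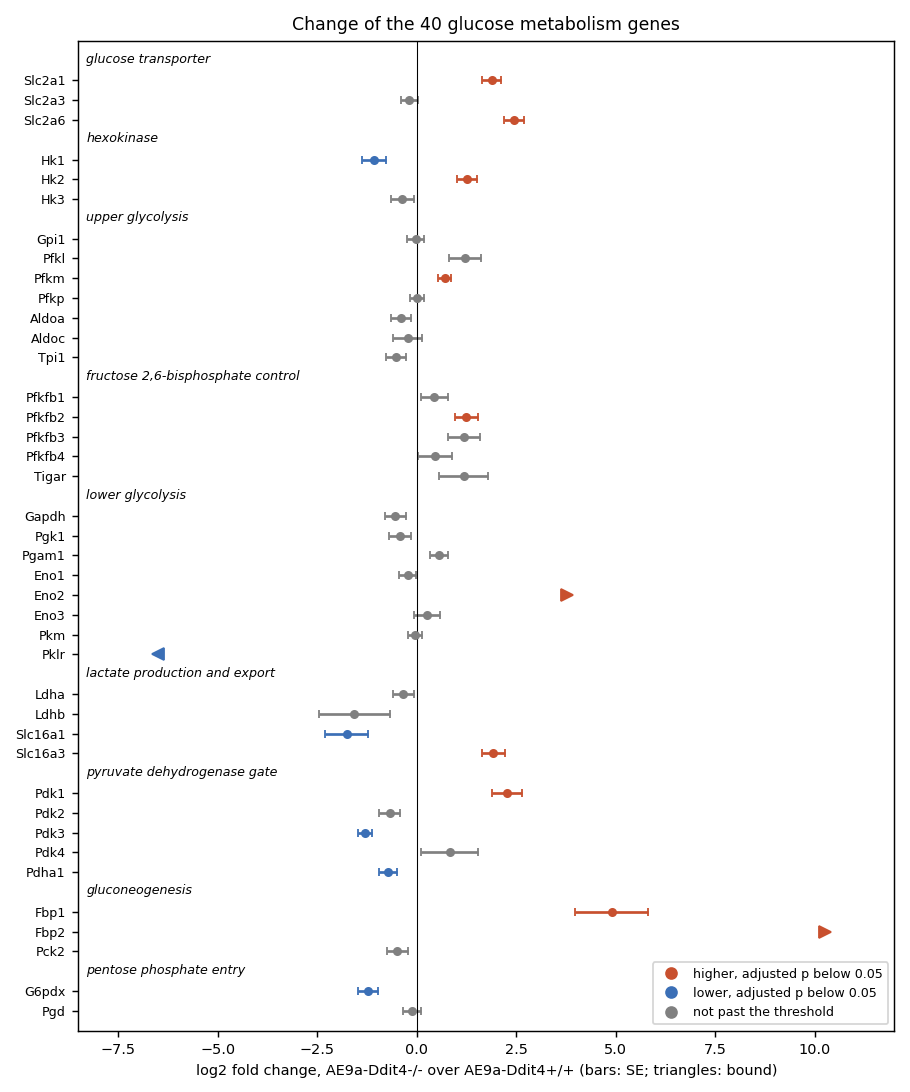
Log2 fold change (AE9a-Ddit4-/- over AE9a-Ddit4+/+, 3 libraries each) of the 40 members by role, with bars for the SE and triangles for bounds where a group lay at or under 12 counts in each library. The 10 higher members (red) and the 6 lower members (blue) are spread over 9 roles, and 24 members (grey) did not pass.

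The stretch upstream of the start site is shown for 5 genes that respond to hypoxia-inducible factors in many cells, 4 of them higher here and Ldha not past the threshold. They are a selection, so no share of such genes is read from them. Pfkfb3, also hypoxia-responsive, did not pass (edgeR adjusted p 0.0628). Neither did Aldoa, Gapdh, Pgk1, Pgam1 and Eno1, as given below. The capitals mark ACGTG or GCGTG, the core of the hypoxia response element, on either strand (CACGT and CACGC are its reverse complements, and CACGTG is ACGTG read on both strands). Each window holds the 250 bases before a RefSeq start on GRCm38.p6, given 5′ to 3′ along the gene. The windows are chr4:119108495-119108744, plus strand for Slc2a1, chr6:82774455-82774704, minus strand for Hk2, chr2:71872974-71873223, plus strand for Pdk1, chr11:120948817-120949066, plus strand for Slc16a3 and chr7:46845554-46845803, plus strand for Ldha.
Slc2a1: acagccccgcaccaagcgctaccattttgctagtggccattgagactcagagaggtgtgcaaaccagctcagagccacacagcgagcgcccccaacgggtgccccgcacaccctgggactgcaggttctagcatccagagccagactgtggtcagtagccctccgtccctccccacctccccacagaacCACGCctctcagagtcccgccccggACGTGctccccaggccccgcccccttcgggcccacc
Hk2: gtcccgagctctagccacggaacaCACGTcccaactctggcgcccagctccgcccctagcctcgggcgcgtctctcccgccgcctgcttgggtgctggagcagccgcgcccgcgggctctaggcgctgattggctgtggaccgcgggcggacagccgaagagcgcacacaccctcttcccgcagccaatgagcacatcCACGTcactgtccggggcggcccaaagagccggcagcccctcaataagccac
Pdk1: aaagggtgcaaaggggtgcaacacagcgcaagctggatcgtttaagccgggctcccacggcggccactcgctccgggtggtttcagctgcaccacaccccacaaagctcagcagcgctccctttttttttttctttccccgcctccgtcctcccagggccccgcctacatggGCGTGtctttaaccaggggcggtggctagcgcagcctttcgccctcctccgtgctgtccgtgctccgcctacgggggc
Slc16a3: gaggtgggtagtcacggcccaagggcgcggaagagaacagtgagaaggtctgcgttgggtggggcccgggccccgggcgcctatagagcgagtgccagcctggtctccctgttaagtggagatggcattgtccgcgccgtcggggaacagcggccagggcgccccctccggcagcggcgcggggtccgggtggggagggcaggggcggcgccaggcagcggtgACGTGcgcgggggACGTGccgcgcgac
Ldha: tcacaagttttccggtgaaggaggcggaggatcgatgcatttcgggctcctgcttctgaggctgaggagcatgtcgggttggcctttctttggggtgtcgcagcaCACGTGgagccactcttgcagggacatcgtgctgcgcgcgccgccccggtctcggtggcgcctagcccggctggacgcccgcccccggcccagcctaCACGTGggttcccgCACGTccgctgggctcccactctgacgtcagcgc
At least one such window with the core was found for 8 of the 10 higher members, 5 of the 6 lower members and 20 of the 23 others with an entry. Members had 60 windows in all, and 43 of them held the core (71.7%). Of 32851 windows of this length, 38.6% held it, and 44% did among protein-coding genes. The counts of genes are not comparable with these shares of windows, since a gene could have several windows. Ldha, with 5 matches in the window shown, was among the genes that did not pass. Promoters were matched for 39 of the 40 symbols, Slc2a3 being the other.

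Glucose transporters came first. Slc2a1 (ENSMUSG00000028645, chr4:119108711-119137983, plus strand) encodes GLUT1, the carrier of basal glucose uptake in most cells. Levels of 26.4, 21.4 and 23.8 CPM in AE9a-Ddit4+/+ compared with 114, 78.5 and 71.0 CPM in AE9a-Ddit4-/-. Every knockout library lay above every wild-type library, and the gene rose 3.69-fold (log2 fold change 1.88, SE 0.24, edgeR adjusted p 0.00169). Slc2a6 (ENSMUSG00000036067, chr2:27021363-27027998, minus strand) encodes GLUT6, a transporter held mostly inside the cell. It had 6.42, 5.86 and 4.58 CPM in AE9a-Ddit4+/+ and 27.7, 33.4 and 30.3 CPM in AE9a-Ddit4-/- (log2 fold change 2.44, SE 0.26, adjusted p 0.000847), again without overlap. Slc2a3, which encodes the high-affinity GLUT3, stayed by far the most abundant of the 3 per length of transcript. Its level was 62.8 CPM per kb of exon in AE9a-Ddit4+/+ and 55.2 in AE9a-Ddit4-/-, against 6.81 and 25.1 for Slc2a1 and 1.75 and 9.49 for Slc2a6. Slc2a3 did not pass (log2 fold change -0.19, adjusted p 0.55), and its libraries overlapped. The 3 transporters together had 485 ± 111 CPM in AE9a-Ddit4+/+ and 518 ± 32.0 CPM in AE9a-Ddit4-/-.

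The hexokinases Hk1 and Hk2 changed in opposite directions. Hk1 (ENSMUSG00000037012, chr10:62268855-62379908, minus strand), the widely expressed isozyme, had 466, 268 and 421 CPM in AE9a-Ddit4+/+ and 170, 245 and 133 CPM in AE9a-Ddit4-/-. The groups did not overlap, but replicate 2 of each group lay close to the other group. Hk1 fell (log2 fold change -1.08, SE 0.30, adjusted p 0.0317). The call was lost without AE9a-Ddit4+/+ replicate 1 or 3 or AE9a-Ddit4-/- replicate 1 or 3, where the log2 fold change was -0.92 to -1.02 (adjusted p 0.0921 to 0.101). Hk2 (ENSMUSG00000000628, chr6:82725025-82774454, minus strand), the isozyme linked to high glycolytic rates, had 35.9, 23.1 and 36.4 CPM in AE9a-Ddit4+/+ and 78.4, 88.2 and 61.1 CPM in AE9a-Ddit4-/-. Its groups were well apart, and it rose 2.39-fold (log2 fold change 1.25, SE 0.25, adjusted p 0.00944). Hk3, the hexokinase of myeloid cells, had 27.1 ± 7.09 and 21.1 ± 4.93 CPM (adjusted p 0.381). Per kb of exon, Hk1 remained the highest of the 3 in both groups, at 45.1 and 21.4 CPM, against 5.33 and 12.7 for Hk2. Red cell precursors express Hk1, and the summed erythroid markers were lowest among AE9a-Ddit4+/+ libraries in replicate 2, as Hk1 was.

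**Figure D2:**
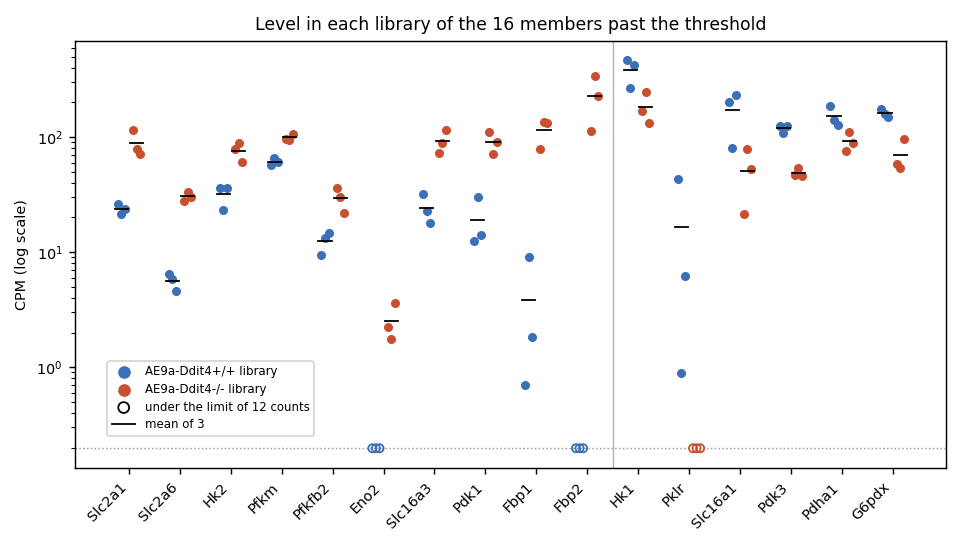
CPM on a log axis of the 16 members past the threshold in each AE9a-Ddit4+/+ (blue) and AE9a-Ddit4-/- (red) library, with black lines for the mean of 3 and open circles for values under the limit of 12 counts, drawn at that limit. The groups did not overlap for any of the 16, and Hk1 and Slc16a1 show the smallest gaps between the groups on this axis.

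Of the upper glycolytic enzymes, only Pfkm passed. Pfkm (ENSMUSG00000033065, chr15:98092589-98132451, plus strand) encodes the muscle-type phosphofructokinase. It had 57.7, 65.2 and 60.3 CPM in AE9a-Ddit4+/+ and 96.0, 95.2 and 106 CPM in AE9a-Ddit4-/-. The libraries of each group were close to each other, and Pfkm rose 1.62-fold (log2 fold change 0.70, SE 0.17, adjusted p 0.0172). Its call was lost, at log2 fold changes of 0.60 to 0.69 (adjusted p 0.0536 to 0.0743), without AE9a-Ddit4+/+ replicate 1 or 3 or AE9a-Ddit4-/- replicate 2 or 3. Chromosome 15, which carries Pfkm, was shifted as a whole: among genes with an average log2 CPM above 4, its median log2 fold change was 0.39, against -0.17 over all chromosomes. The liver-type Pfkl had 61.1, 17.6 and 47.4 CPM in AE9a-Ddit4+/+ and 91.8, 103 and 96.9 CPM in AE9a-Ddit4-/-. Its groups did not overlap, and it did not pass (log2 fold change 1.21, SE 0.41, adjusted p 0.0613). It passed when AE9a-Ddit4+/+ replicate 1 (log2 fold change 1.58, adjusted p 0.0449) or replicate 2 (0.84, adjusted p 0.0245) was left out, by DESeq2 (adjusted p 0.0208), under a minimum of 10 counts per library (0.0477) and after division of the counts by 4 (0.0461). The platelet-type Pfkp was at 87.5 ± 14.6 and 88.0 ± 5.46 CPM. Gpi1, which turns glucose 6-phosphate into fructose 6-phosphate, had 620, 911 and 633 CPM in AE9a-Ddit4+/+ and 734, 620 and 780 CPM in AE9a-Ddit4-/- (log2 fold change -0.02, adjusted p 0.955). Aldoa, Aldoc and Tpi1 did not pass either, with log2 fold changes of -0.39, -0.23 and -0.52. For Tpi1 that held in all alternatives but one, since it passed without AE9a-Ddit4+/+ replicate 2 (adjusted p 0.0403). The second Aldoa entry held 0.510 to 2.55 CPM and did not pass (adjusted p 0.238).

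Fructose 2,6-bisphosphate, the strongest activator of phosphofructokinase, is made and broken down by the PFKFB enzymes, and TIGAR breaks it down. The 5 genes had positive log2 fold changes, from 0.44 to 1.25, and 1 of them passed, against 30.1% of all genes tested. Their summed level was 66.9 ± 24.2 CPM in AE9a-Ddit4+/+ and 132 ± 32.6 CPM in AE9a-Ddit4-/-. Pfkfb2 (ENSMUSG00000026409, chr1:130689182-130729253, minus strand) had 9.49, 13.2 and 14.6 CPM in AE9a-Ddit4+/+ and 36.2, 30.4 and 22.0 CPM in AE9a-Ddit4-/-. It rose without overlap (log2 fold change 1.25, SE 0.29, adjusted p 0.0155), with an adjusted p of 0.0502 to 0.0545 without AE9a-Ddit4+/+ replicate 1 or AE9a-Ddit4-/- replicate 1 or 2. Chromosome 1 had a median log2 fold change of 0.23 by the same measure as chromosome 15. Pfkfb3, the hypoxia-responsive form with the strongest kinase activity, had 17.6, 43.3 and 23.4 CPM in AE9a-Ddit4+/+ and 74.5, 77.6 and 39.1 CPM in AE9a-Ddit4-/-. Replicate 3 of the knockout lay below replicate 2 of the wild type, and the gene did not pass (log2 fold change 1.18, adjusted p 0.0628). Without the one or the other of these libraries it passed, with an adjusted p of 0.0487 and 0.0167, as it did by DESeq2 (0.020) and with counts divided by 4 (0.0495). Pfkfb1, Pfkfb4 and Tigar were at 4.95 ± 1.18 and 6.72 ± 0.904, 18.6 ± 9.76 and 25.5 ± 8.91, and 2.79 ± 1.68 and 6.32 ± 2.82 CPM, all with overlap.

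The abundant enzymes that each carry 1 step of the pathway showed no call. None of Gpi1, Aldoa, Tpi1, Gapdh, Pgk1, Pgam1, Eno1, Pkm and Ldha passed (9 genes, edgeR adjusted p 0.108 to 0.955), against 30.1% of all genes tested. Their log2 fold changes ran from -0.53 to 0.56, and 8 of the 9 were negative. Pgam1 alone had an unadjusted p below 0.05, and DESeq2 called 0 of the 9. Pkm, the pyruvate kinase of most tissues, had 975, 985 and 824 CPM in AE9a-Ddit4+/+ and 799, 949 and 960 CPM in AE9a-Ddit4-/- (log2 fold change -0.04, SE 0.17). The groups covered nearly the same range. Ldha, which makes lactate from pyruvate, had 1188, 692 and 1039 CPM in AE9a-Ddit4+/+ and 596, 916 and 803 CPM in AE9a-Ddit4-/- (log2 fold change -0.33, SE 0.26, adjusted p 0.37). Its wild-type libraries spread more widely than the 2 means lay apart. Pgk1, Eno1 and Pgam1 were at 446 ± 95.7 and 332 ± 104, 513 ± 80.2 and 439 ± 79.7, and 184 ± 43.3 and 272 ± 41.5 CPM. Of these enzymes, only Pgam1 had groups without overlap (203, 214 and 134 against 225, 305 and 284 CPM, adjusted p 0.108). Per kb of exon Ldha was the highest of the other 8 in AE9a-Ddit4+/+ (294 CPM), followed by Pgk1 (199) and Pkm (186), with Gapdh not placed because most of its counts lay on copies, as given next.

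**Figure D3:**
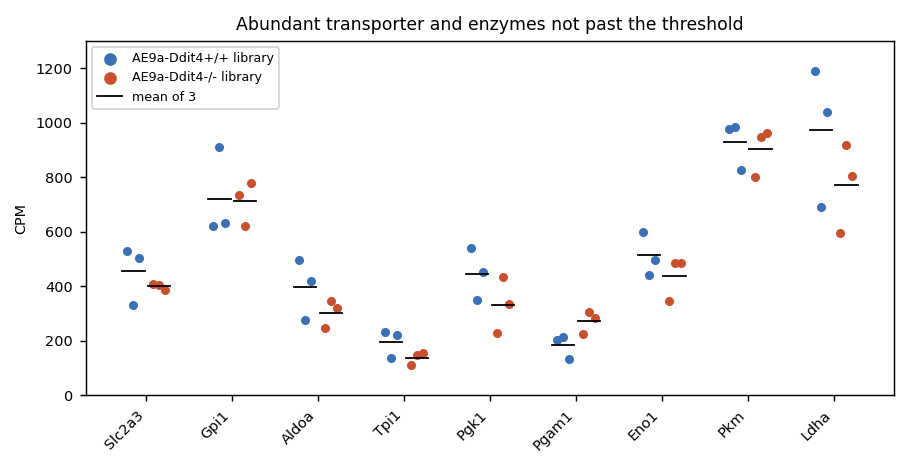
CPM on a linear axis of Slc2a3 and 8 abundant enzymes in each AE9a-Ddit4+/+ (blue) and AE9a-Ddit4-/- (red) library, with lines for the mean of 3. The groups overlap for all but Pgam1, and none of the 9 genes passed the threshold.

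Gapdh has many processed copies in the mouse genome, and counts were spread over them. Its own entry had 98.1, 81.7 and 97.1 CPM in AE9a-Ddit4+/+ and 60.7, 45.7 and 84.9 CPM in AE9a-Ddit4-/- (adjusted p 0.151). That was only 2.05% to 3.96% of the counts given to Gapdh and 173 annotated copies together, of which 129 had counts. The sum over gene and copies was 2646, 2786 and 2615 CPM in AE9a-Ddit4+/+ and 1687, 2233 and 2143 CPM in AE9a-Ddit4-/-. These sums did not overlap, and their log2 fold change of -0.41 (SE 0.18) did not pass either (adjusted p 0.125). The entry of Gapdh alone passed without AE9a-Ddit4-/- replicate 3 (log2 fold change -0.84, adjusted p 0.0448). Eno1, Pgam1 and Pgk1 held 87.2% to 93.7%, 90.9% to 95.1% and 95.3% to 96% of the counts summed with their copies. Of 12 members with copies, summing changed the call of none.

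At the lower end of glycolysis, 2 isozymes of restricted expression changed. Eno2 (ENSMUSG00000004267, chr6:124760053-124769673, minus strand), the neuronal enolase, had 0, 0.0589 and 0 CPM in AE9a-Ddit4+/+ and 2.22, 1.76 and 3.59 CPM in AE9a-Ddit4-/-. All wild-type libraries lay under the limit of 12 counts (0.163 to 0.197 CPM), so the gene was at least 13.7-fold higher (adjusted p 0.00414). It remained a minor form, at 0.536 CPM per kb of exon against 81.6 for Eno1. Pklr (ENSMUSG00000041237, chr3:89136142-89146784, plus strand), the pyruvate kinase of liver and red cells, had 43.0, 0.884 and 6.20 CPM in AE9a-Ddit4+/+ and 0.0642, 0 and 0 CPM in AE9a-Ddit4-/-. It was at least 90.5-fold lower (adjusted p 0.0091), a bound that fell to 19.2-fold without AE9a-Ddit4+/+ replicate 1, and the wild-type libraries differed from each other more than for any other gene here that fell. These followed the order of the summed erythroid markers, being highest in replicate 1 and lowest in replicate 2. A stretch of 711 exonic bases of Pklr, 22% of the gene, also belongs to Hcn3 on the other strand, and whether strand was used in counting was not given. Eno3, the muscle enolase, had 28.9 ± 8.38 and 34.7 ± 11.5 CPM (adjusted p 0.571). The 250 bases before the first start of Pklr (chr3:89135892-89136141, plus strand, GRCm38.p6) are shown because they hold AGATAA, a sequence that erythroid GATA factors bind. Capitals mark it, and 9.99% of all windows held it on either strand. It was in at least one window of 1 of the 6 lower members, 3 of the 10 higher members and 3 of the 23 others.
Pklr: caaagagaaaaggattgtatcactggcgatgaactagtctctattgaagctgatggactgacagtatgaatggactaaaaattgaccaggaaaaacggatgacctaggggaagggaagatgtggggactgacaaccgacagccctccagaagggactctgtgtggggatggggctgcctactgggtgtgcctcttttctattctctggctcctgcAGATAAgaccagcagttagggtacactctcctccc

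The lactate transporters changed in opposite directions. Slc16a1 (ENSMUSG00000032902, chr3:104638668-104658462, plus strand) encodes MCT1, which carries lactate both ways. It had 202, 80.0 and 232 CPM in AE9a-Ddit4+/+ and 21.6, 78.1 and 52.5 CPM in AE9a-Ddit4-/-. Replicate 2 of both groups was nearly level, with no overlap. Slc16a1 fell (log2 fold change -1.76, SE 0.54, adjusted p 0.0445). Without AE9a-Ddit4+/+ replicate 1 or 3 or AE9a-Ddit4-/- replicate 1 or 3 that call was lost, at log2 fold changes of -1.39 to -1.81 (adjusted p 0.0948 to 0.129). In AE9a-Ddit4+/+ it was again lowest in the library with the lowest sum of erythroid markers. Slc16a3 (ENSMUSG00000025161, chr11:120948480-120960868, plus strand) encodes MCT4, the exporter of highly glycolytic cells. It had 31.9, 22.7 and 18.03 CPM in AE9a-Ddit4+/+ and 73.1, 88.4 and 115 CPM in AE9a-Ddit4-/-. All knockout libraries were above all wild-type ones, and the gene rose 3.801-fold (log2 fold change 1.93, SE 0.28, adjusted p 0.00302). Ldhb, which favors the use of lactate, was low at 4.23 ± 3.25 and 1.43 ± 1.08 CPM and did not pass (adjusted p 0.227).

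Among the genes that gate pyruvate dehydrogenase, 3 of 5 passed the threshold, as did 30.1% of all genes tested. Pdk1 (ENSMUSG00000006494, chr2:71873224-71903858, plus strand), a kinase that switches the enzyme off and is induced in hypoxia, had 12.5, 30.0 and 14.2 CPM in AE9a-Ddit4+/+ and 110, 71.9 and 91.5 CPM in AE9a-Ddit4-/-. It rose 4.83-fold without overlap (log2 fold change 2.27, SE 0.38, adjusted p 0.00468). Pdk3 (ENSMUSG00000035232, chrX:93764607-93832201, minus strand), a kinase of the same family, had 124, 109 and 125 CPM in AE9a-Ddit4+/+ and 46.6, 53.8 and 46.2 CPM in AE9a-Ddit4-/-. The 3 libraries of each group were close, and Pdk3 fell (log2 fold change -1.29, SE 0.17, adjusted p 0.00199). Pdha1 (ENSMUSG00000031299, chrX:160122209-160138413, minus strand), the catalytic subunit these kinases act on, had 187, 140 and 128 CPM in AE9a-Ddit4+/+ and 75.1, 111 and 89.1 CPM in AE9a-Ddit4-/-. The gap between the groups was small, and the call (log2 fold change -0.73, SE 0.23, adjusted p 0.0481) was lost in 11 of 16 alternatives. Among these was leaving out any library other than AE9a-Ddit4-/- replicate 2, with an adjusted p of 0.0593 to 0.145. Of its exonic bases, 16.2% are shared with Map3k15 on the other strand. Pdk2 had 35.1 ± 9.62 and 21.9 ± 3.24 CPM (adjusted p 0.0978) and passed without AE9a-Ddit4+/+ replicate 1 (adjusted p 0.0445). Pdk4, at 0.516 ± 0.108 and 0.919 ± 0.621 CPM, was the lowest of the kinases in each group, per kb of exon as well.

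Among the 40 members the largest change was in the fructose bisphosphatases, the enzymes that remove a phosphate from fructose 1,6-bisphosphate in gluconeogenesis. Fbp2 (ENSMUSG00000021456, chr13:62836877-62858422, minus strand) encodes the muscle isozyme. No count fell on it in any AE9a-Ddit4+/+ library, and the AE9a-Ddit4-/- libraries had 112, 336 and 229 CPM. Measured against the limit of 12 counts per library, it was at least 1226-fold higher (adjusted p 0.000495). Fbp1 (ENSMUSG00000069805, chr13:62864753-62888282, minus strand), the isozyme of liver and of monocytes, had 0.696, 9.04 and 1.82 CPM in AE9a-Ddit4+/+ and 79.4, 134 and 132 CPM in AE9a-Ddit4-/-. It rose 29.8-fold without overlap (log2 fold change 4.90, SE 0.92, adjusted p 0.00745), and 91.2-fold without AE9a-Ddit4+/+ replicate 2 (log2 fold change 6.51). Pck2, the mitochondrial PEP carboxykinase, had 74.2 ± 22.4 and 53.0 ± 9.29 CPM and did not pass (adjusted p 0.198). The window before the Fbp2 start (chr13:62858401-62858650, minus strand, GRCm38.p6) is shown with its ACGTG matches, which form 1 CACGTG, in capitals. CACGTG, the E-box that MYC and MLX proteins can bind, was in 6.02% of all windows.
Fbp2: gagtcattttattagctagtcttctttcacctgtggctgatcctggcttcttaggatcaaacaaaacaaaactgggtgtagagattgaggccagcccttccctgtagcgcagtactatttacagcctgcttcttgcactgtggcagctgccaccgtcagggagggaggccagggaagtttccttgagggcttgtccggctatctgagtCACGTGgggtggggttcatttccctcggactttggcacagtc

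Muscle markers were compared because Fbp2 is a muscle gene. The 8 markers summed to 55.3, 49.8 and 32.1 CPM in AE9a-Ddit4+/+ and 134, 245 and 45.3 CPM in AE9a-Ddit4-/-, with every marker counted in both groups. Ckm, the creatine kinase of muscle, was higher in the knockout, at 34.5, 66.5 and 33.7 CPM (edgeR adjusted p 0.00231). Acta1, skeletal muscle actin, had 25.6, 50.2 and 2.31 CPM there, and Myh4, a fast muscle myosin, had 31.8, 64.3 and 2.64 CPM. In replicate 3 of AE9a-Ddit4-/- both were below all AE9a-Ddit4+/+ libraries (4.93 to 10.7 CPM for Acta1 and 6.70 to 15.1 CPM for Myh4). In that library Ckm was at 33.7 CPM and Fbp2 at 229 CPM, and Fbp2 was at 0 in all of AE9a-Ddit4+/+. Monocyte and macrophage markers, 114 to 316 CPM in the knockout, had the order of replicates 3, 1 and 2, and Fbp1 was lowest in replicate 1. The part of muscle cells or monocytes in the levels of Fbp2 and Fbp1 was not tested.

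Fbp2 and Fbp1 lie next to each other on chromosome 13, with 6.33 kb between them. Other genes of the same stretch were therefore compared, a choice made after the values were seen. Within 250 kb of either gene, 20 genes were annotated and 8 were tested. Of these, Fbp2 itself, 6720489N17Rik, Gm5141, Gm7045 and Gm36298 had at most 16 counts in any AE9a-Ddit4+/+ library and could be tested only through the AE9a-Ddit4-/- libraries, so no count of genes is read from the stretch. Platr25 rose from 64 to 101 counts per library to 303 to 826 counts (log2 fold change 2.52, SE 0.48, adjusted p 0.00754). 6720489N17Rik rose from 9 to 16 counts to 92 to 488 counts (log2 fold change 4.42, SE 0.69, adjusted p 0.00364). Gm5141 rose as well (log2 fold change 3.96, adjusted p 0.0239), as did Gm7045 (at least 5.10-fold, adjusted p 0.0161) and Gm36298 (at least 2.23-fold, adjusted p 0.0337). Aopep, an aminopeptidase gene on the other side of Fbp1, did not pass (log2 fold change 0.72, SE 0.28, adjusted p 0.0877). All but Fbp2, Fbp1 and Aopep had few counts, and reads shared between related copies were not resolved.

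**Figure D4:**
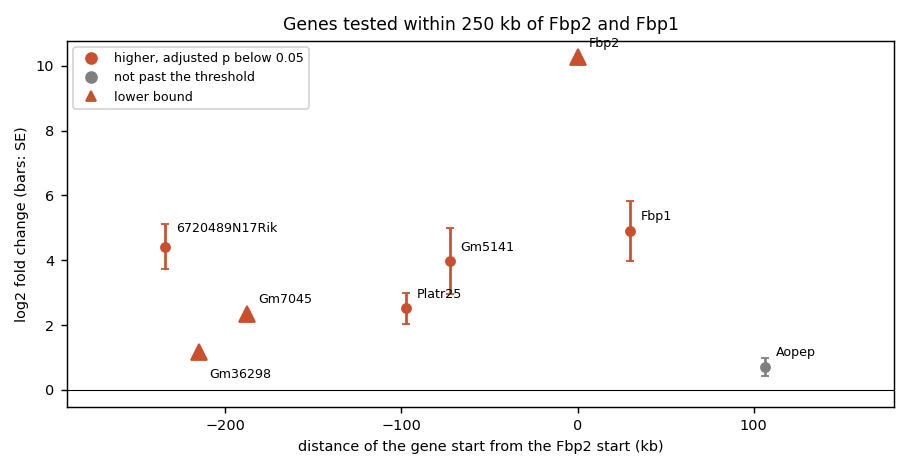
Log2 fold change (AE9a-Ddit4-/- over AE9a-Ddit4+/+, bars for the SE, triangles for lower bounds) of the 8 genes tested within 250 kb of Fbp2 and Fbp1, by distance in kb of their start sites from that of Fbp2. Aopep (grey) did not pass the threshold, and Fbp2 and 4 of the other red genes were testable only through the AE9a-Ddit4-/- libraries.

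Of the pentose phosphate entry enzymes, 1 of 2 passed the threshold, as did 30.1% of all genes tested. G6pdx (ENSMUSG00000031400, chrX:74409483-74429194, minus strand), glucose 6-phosphate dehydrogenase, makes the first NADPH of the pathway. It had 176, 158 and 150 CPM in AE9a-Ddit4+/+ and 58.4, 53.7 and 95.9 CPM in AE9a-Ddit4-/-. The groups were well apart, and it fell 2.33-fold (log2 fold change -1.22, SE 0.26, adjusted p 0.0109). Exonic bases shared with Ikbkg on the other strand are 13.6% of the gene. Pgd, the next dehydrogenase, had 167 ± 32.4 and 153 ± 30.0 CPM (adjusted p 0.702). G6pdx, Pdk3 and Pdha1 were 3 of the 6 lower genes and lie on the X chromosome, as do Pgk1 and Pfkfb1, which did not pass. The median log2 fold change of the X chromosome was -0.30, against -0.17 over all chromosomes.

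Isozymes of one family were also compared as shares of their family, by counts per kb of exon in each library. Shares of 1 library add to 100%, so they are not independent, and an exact permutation test of 3 against 3 libraries cannot go below p = 0.1. Of 25 shares tested, 13 did not overlap between the groups, each with the smallest p possible (exact two-sided permutation p = 0.1, adjusted 0.192). Hk1 went from 77.7% ± 3.18 to 52.9% ± 6.47 of the hexokinases and Hk2 from 9.24% ± 0.705 to 32.0% ± 1.60. Slc2a1 went from 9.74% ± 1.47 to 27.7% ± 4.94 of the transporters while Slc2a3 went from 87.7% ± 2.26 to 61.7% ± 3.40. Pdk1 went from 4.03% ± 2.09 to 30.7% ± 4.96 of the kinases and Pdk3 from 77.5% ± 6.29 to 50.4% ± 6.28. After the fructose bisphosphatases, the widest shift was in the lactate transporters. Slc16a3 was 11.6%, 19.1% and 6.08% of the pair in AE9a-Ddit4+/+ and 73.8%, 48.5% and 64.5% in AE9a-Ddit4-/-. Pfkm kept the largest share of phosphofructokinase, at 59.4% ± 9.99 and 58.4% ± 1.76, while Pfkl went from 19.6% ± 9.05 to 28.7% ± 1.79 and Pfkp from 20.9% ± 1.54 to 12.9% ± 0.206. Fbp1 was the whole of its family in AE9a-Ddit4+/+ and 32.3% ± 6.25 of it in AE9a-Ddit4-/-, Fbp2 making up the rest. Aldoa and Ldha held over 95% of their families in every library, as did Pkm in all but AE9a-Ddit4+/+ replicate 1 (93.6%).

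**Figure D5:**
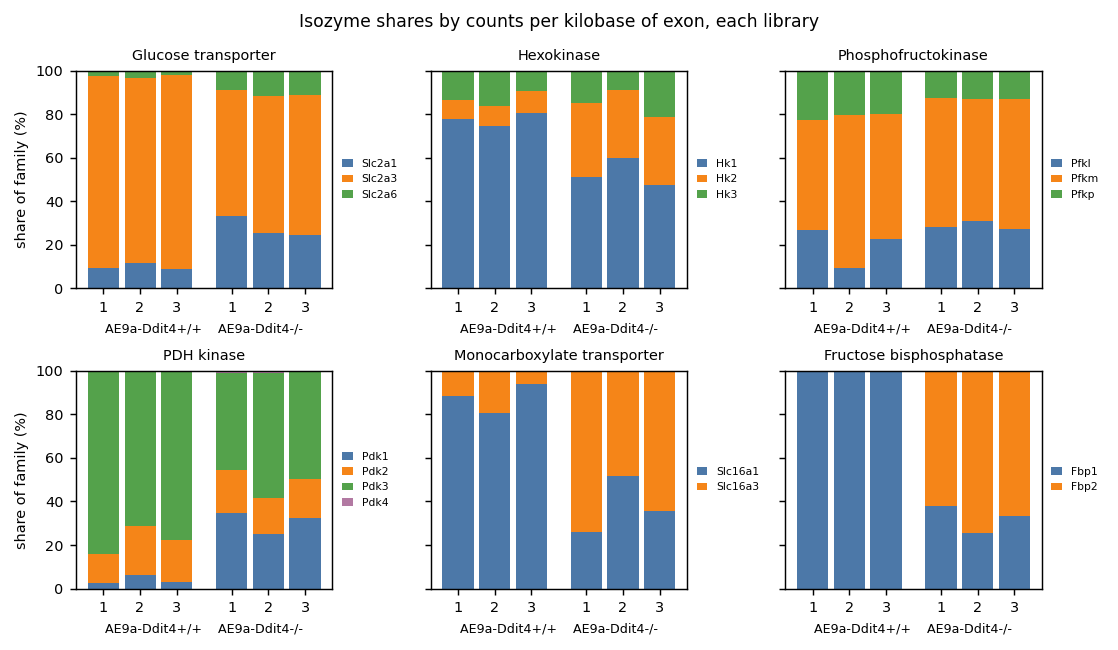
Share (%) of each isozyme in its family by counts per kb of exon, for 6 families, with 1 bar per library and the AE9a-Ddit4+/+ libraries on the left of each panel. In AE9a-Ddit4-/- the shares of Slc2a1, Hk2, Pdk1, Slc16a3 and Fbp2 were above those of every AE9a-Ddit4+/+ library, and Pfkm kept the largest share of its family.

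Other genes of these pathways were counted in the same fit. Of 54 genes, 42 were tested, 9 were higher and 7 were lower (38.1%, against 30.1% of all genes). Among the other sugar transporters, Slc2a10, Slc2a5 and Slc2a4 had at most 8 counts in any AE9a-Ddit4+/+ library and entered the test through the AE9a-Ddit4-/- libraries, so their number is not read. Ldhc and Ldhd, given below, had at most 16 and 2 counts there and entered the same way. The number of higher genes and the 38.1% include all of these and are not read as a result. Slc2a10 had 0 counts in AE9a-Ddit4+/+ and 4.14, 4.90 and 6.31 CPM in AE9a-Ddit4-/- (at least 27.8-fold, adjusted p 0.000824). The fructose transporter Slc2a5 (at least 10.96-fold, adjusted p 0.011) and the insulin-responsive Slc2a4 (at least 7.75-fold, adjusted p 0.00714) stayed low in the knockout, at 2.02 ± 1.26 and 1.43 ± 0.767 CPM. In glycogen metabolism, Pgm1, a phosphoglucomutase, rose from 17.3 ± 1.63 to 81.2 ± 13.9 CPM (log2 fold change 2.23, adjusted p 0.000616). Pygm, the muscle glycogen phosphorylase, rose from 6.23 ± 0.827 to 28.4 ± 9.15 CPM (log2 fold change 2.19, adjusted p 0.00297). Glycogen genes as a group had 3 of 8 higher and 0 lower by edgeR, against 19.4% and 10.7% of all genes. At an unadjusted p below 0.05, 1 was lower, and 1 was lower by DESeq2.

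Pcx, pyruvate carboxylase, opens gluconeogenesis from pyruvate and moved opposite to the fructose bisphosphatases. It had 21.8, 6.995 and 18.96 CPM in AE9a-Ddit4+/+ and 0.803, 0.461 and 0.788 CPM in AE9a-Ddit4-/- (log2 fold change -4.54, SE 0.56, adjusted p 0.00152). Adpgk, an ADP-dependent glucokinase, fell from 122 ± 12.4 to 37.7 ± 17.5 CPM (adjusted p 0.00795). Bpgm, which makes the 2,3-bisphosphoglycerate of red cells, fell from 79.2 ± 19.1 to 25.1 ± 4.31 CPM (adjusted p 0.00351). Of these, Bpgm was higher in AE9a-Ddit4+/+ replicate 2 than in replicate 1. The summed erythroid markers were lower there, although Klf1 of that list was higher as well (46.0 and 32.3 CPM). The cause was not tested. Ldhc, the testis lactate dehydrogenase, and Ldhd, which uses D-lactate, rose to 2.06 ± 1.56 and 1.498 ± 1.28 CPM from at most 0.253 and 0.0316 CPM (adjusted p 0.0341 and 0.00632). The nonoxidative pentose phosphate genes Tkt, Taldo1 and Rpia, named after their values were seen, fell, and Rpe did not pass (29.2 ± 11.3 and 30.5 ± 2.89 CPM, log2 fold change 0.06, adjusted p 0.905). Tkt went from 891 ± 175 to 474 ± 138 CPM (adjusted p 0.0399), Taldo1 from 310 ± 80.3 to 107 ± 38.4 CPM (adjusted p 0.00944) and Rpia from 75.2 ± 14.5 to 28.2 ± 4.95 CPM (adjusted p 0.00432). Of 7 other genes of the pyruvate dehydrogenase complex and its phosphatases, 0 passed by edgeR, against 30.1% of all genes tested. At an unadjusted p below 0.05, 1 was lower, and 1 was lower by DESeq2.

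Of 16 transcriptional regulators of glucose use, 14 were tested, 3 were higher and 3 were lower (42.9%, against 30.1% of all genes, 19.4% higher and 10.7% lower). Myc had 41.6, 30.6 and 51.5 CPM in AE9a-Ddit4+/+ and 110, 170 and 184 CPM in AE9a-Ddit4-/-, without overlap (log2 fold change 1.91, SE 0.28, adjusted p 0.00302). Myc lies on chromosome 15, whose shift is given above for Pfkm. Hif1a, whose protein rather than transcript is controlled by oxygen, was at 104 ± 19.8 and 88.7 ± 11.8 CPM (log2 fold change -0.23, adjusted p 0.445). Epas1, which encodes HIF-2α, rose from 0.110 ± 0.119 to 2.20 ± 0.448 CPM (log2 fold change 4.29, adjusted p 0.0188). It had at most 16 counts in any AE9a-Ddit4+/+ library and entered the test through the AE9a-Ddit4-/- libraries. Endothelial cells express Epas1 strongly, and the summed stroma and endothelium markers given above were higher in the knockout too. Col1a1, Col1a2 and Lepr of that list did not pass, and the part of such cells in the level of Epas1 was not tested. Arrdc4, an arrestin that limits glucose uptake, rose from 11.4 ± 9.46 to 41.2 ± 1.83 CPM (log2 fold change 1.85, adjusted p 0.0359), while its relative Txnip, named after its values were seen, was at 2401 ± 1474 and 901 ± 320 CPM and did not pass (adjusted p 0.0547). Mlx (log2 fold change -0.95, adjusted p 0.0428), Foxk1 (-0.58, adjusted p 0.0447) and Trp53 (-1.41, adjusted p 0.042) were lower, and the groups overlapped for Trp53. At most 1 regulator was called lower when any 1 library was left out, and 1 was called higher without AE9a-Ddit4-/- replicate 1.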

How the data were processed

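Per the study's methods, libraries were sequenced as 150-bp paired reads on an Illumina NovaSeq instrument. For library preparation the methods give a directional kit used on RNA without rRNA, and the labels give an mRNA kit. The authors deposited 1 table of counts per gene, with a column per library. Their processing notes name GRCm38 (mm10), and the aligner, the counting tool and the use of strand were not given in the sources used here. Low values piled up at multiples of 4, so the limit of detection was set at 12 counts. Limits cover counting error only.

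Positions and exon lengths came from GENCODE M21 on GRCm38, which held 55240 of the 55421 identifiers. Symbols that had been turned into dates (27) were restored. In R 4.3.3, genes were filtered with filterByExpr (18375 kept), scaled by TMM and tested by genotype in edgeR 4.0.16 (robust quasi-likelihood fit) over all 6 libraries. P values were adjusted by Benjamini-Hochberg over all genes tested, with a threshold of 0.05. The SE of a log2 fold change was derived from it and the root of its F statistic. Values after ± are SD over 3 libraries. Alternatives covered scaling, filters, DESeq2 1.42.0, counts divided by 4, a stricter threshold, a replicate block and leaving out each library. Summing a member with its near-identical copies (BLAST 2.17.0) was chosen after seeing the data. The edgeR steps were tested on simulated data.

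The members and lists were chosen with earlier results of these data known. Values in each library are given for members past the threshold and for members averaging 500 CPM or more. Of the other pathway genes and regulators, those past the threshold are named, at most 10 per list by absolute log2 fold change, and other genes are named as chosen after their values were seen.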

Additional observations from a re-analysis of the deposited data

How the results depend on the processing

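Of the 16 members past the threshold, 9 (Slc2a1, Slc2a6, Eno2, Slc16a3, Pdk1, Fbp1, Fbp2, Pklr and Pdk3) were called in the same direction under every alternative that tested them, and 7 were lost under at least 1. Eno2, Pklr and Fbp2 were not tested when 10 counts were required in every library. Members gave 10 higher and 5 or 6 lower genes under the other scalings, without a low-count filter and when summed with their copies, and 12 and 6 by DESeq2. At an adjusted p below 0.01, 1964 genes were higher and 712 lower. At that threshold 2 members were lower, 5 other pathway genes and 1 regulator were higher, and 0 regulators were lower. With at least 10 counts in every library, which tests fewer genes, 2341 genes and 5 other pathway genes were higher and 1 regulator was lower. Replicate numbers did not pair the libraries (same-numbered correlations of -0.28, -0.327 and -0.026), and a replicate block gave 2177 higher and 787 lower genes, 7 higher and 3 lower members and 0 lower regulators. Under that block Hk1, Hk2, Pfkm, Pfkfb2, Slc16a1 and Pdha1 did not pass (adjusted p 0.0516 to 0.135). Leaving out 1 library gave 1089 to 2078 lower genes, with 1168, 1089 and 1157 without AE9a-Ddit4+/+ replicate 1, AE9a-Ddit4+/+ replicate 3 and AE9a-Ddit4-/- replicate 1. It gave 3 to 6 lower members, with 3 without AE9a-Ddit4+/+ replicate 3 or AE9a-Ddit4-/- replicate 1, 1 to 4 higher regulators and 0 to 1 lower regulators. Some changes near 0 switched sign without passing. The log2 fold changes ran from -0.13 to 0.18 for Gpi1, from -0.088 to 0.15 for Pfkp, from -0.034 to 0.43 for Eno3 and from -0.12 to 0.045 for Pkm when 1 library was left out. With at least 10 counts they were 0.045 for Gpi1 and 0.024 for Pkm, and for Pfkp -0.051 by library totals alone and -0.028 without a filter. Differences in family share, in percentage points, ran from -1.04 to 5.11 for Hk3, from -5.52 to 4.33 for Pfkm (1.96 without length scaling), from -0.788 to 0.569 for Aldoa, from -0.0248 to 7.47 for Eno3 and from -2.68 to 1.80 for Pdk2 (-6.54 without length scaling). The cause was not tested. Precision is limited by 3 libraries per group with a biological coefficient of variation of 0.433, and the number of fragments behind a count is unknown.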

Other observations

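The sequence TGTGGT, which RUNX1 and its fusion AML1-ETO can bind, was searched on both strands in the same windows of 250 bases. It was found in at least one window of 2 of the 10 higher members, 2 of the 6 lower members and 4 of the 23 others, and in 14% of all windows. The monocarboxylate helpers showed no call either, with the chaperone Bsg at 149 ± 59.2 and 179 ± 96.8 CPM and the mitochondrial pyruvate carriers Mpc1 and Mpc2 at 18.0 ± 2.63 and 11.1 ± 6.48 and at 58.2 ± 7.91 and 44.4 ± 3.39 CPM, named after their values were seen. AE9a-Ddit4+/+ replicate 2 was the lowest of its group for 16 of the 40 members and the highest for 13, so it did not lie to one side of the others.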
